A study of Mus musculus with 16 samples.

Results

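Iron and heme handling was followed through 10 genes named by symbol: the iron carrier Trf, the uptake genes Tfrc and Slc11a2, the storage gene Fth1, the exporter Slc40a1, the ferroxidases Cp and Heph, the heme synthesis gene Alas1, and the scavenger genes Hp and Hpx. Each was read from the probe set annotated to that gene alone, taking the probe set of highest mean over the 16 arrays. Of the 10 genes, 9 had such a probe set, among 22180 genes measured in this way. Trf shared its probe set with Srprb, so no value was assigned to Trf.

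RNA from mouse kidney cortex was measured on Affymetrix arrays in 4 groups of 4 arrays each, all from animals 3 months old on a normal diet. The double mutants carried floxed Vhl and floxed Pbrm1 with Ksp-Cre, the Vhl mutants floxed Vhl with Ksp-Cre, and the Pbrm1 mutants floxed Pbrm1 with Ksp-Cre. The wild-type group was labelled as such, without stating whether it carried floxed alleles or Cre. Vhl encodes the part of a ubiquitin ligase that marks hypoxia-inducible factor (HIF) for destruction, and Pbrm1 encodes a subunit of the PBAF chromatin remodelling complex. The study asked which early transcript changes after these deletions may bear on clear cell kidney cancer. Ksp-Cre takes its promoter from Cdh16, which is active in tubule epithelium of the kidney, so macrophages, vessels and other cells of the cortex keep the intact genes. The wild type was C57BL/6 and every mutant group a mixed background of C57BL/6, BALB/c and 129. Genotype and strain therefore cannot be told apart in a comparison with wild type, whereas the mutant groups share a strain label. That label does not give the strain make-up of single animals, so strain may still differ between mutant groups. An interaction, the double mutant difference minus the single mutant ones, also uses the wild-type arrays, so the same limit holds for it.

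Each array description holds a number and the letter L or R, whose meaning the labels do not give. There were 2 numbers in each group. If a number marks an animal, each group came from 2 animals, and p-values measure the spread between arrays, which may be partly technical. Double mutant replicates 1, 2 and 3 share a number, and replicates 2 and 3 have the same description. Their values were not identical, with an SD of 0.27 for the log2 difference between these arrays, against 0.21 for replicates 1 and 2. It was 0.23 for replicates 3 and 4, which have different numbers. In bulk tissue, fewer cells of a type and less RNA per cell cannot be told apart.

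Cells take up transferrin-bound iron through the transferrin receptor (Tfrc), and Slc11a2 (DMT1) carries ferrous iron across the endosomal membrane. Surplus iron is stored in ferritin, of which Fth1 is the heavy chain, or leaves the cell through ferroportin (Slc40a1). The copper ferroxidases ceruloplasmin (Cp) and hephaestin (Heph) oxidise exported iron so that transferrin can bind it. Alas1 catalyses the first and rate-limiting step of heme synthesis in most tissues, and the plasma proteins haptoglobin (Hp) and hemopexin (Hpx) bind free hemoglobin and free heme. In the kidney, proximal tubule cells recover filtered iron-binding proteins by endocytosis, and HIF is known from other cell systems to raise Cp and Tfrc transcription.

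Promoter sequences are shown for Cp and Alas1, the members with the widest spread over genotypes, and for Tfrc, which is known as a HIF target. They come from RefSeq on GRCm38.p6 and run from 100 bases before to 20 bases after the most upstream annotated start. Capitals mark the HIF core letters ACGTG or GCGTG, on either strand. The last line shows the Alas1 bases around a match to the palindromic letters bound by nuclear respiratory factor 1 (NRF1), a factor known for genes of mitochondrial function; there the capitals are the letters searched for.
Cp, chr3:19956954-19957073, plus strand: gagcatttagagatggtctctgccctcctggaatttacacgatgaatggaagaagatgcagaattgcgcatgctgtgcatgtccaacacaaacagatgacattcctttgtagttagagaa
Alas1, chr9:106247935-106248054, minus strand: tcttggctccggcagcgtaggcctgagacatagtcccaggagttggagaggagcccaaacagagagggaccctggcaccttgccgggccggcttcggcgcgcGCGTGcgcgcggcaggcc
Tfrc, chr16:32608796-32608915, plus strand: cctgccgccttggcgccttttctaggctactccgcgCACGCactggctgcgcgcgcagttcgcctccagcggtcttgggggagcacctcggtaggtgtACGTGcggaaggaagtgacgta
Alas1, chr9:106247906-106247935, minus strand: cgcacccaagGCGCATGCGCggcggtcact

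The RefSeq table held windows from 250 bases before to 50 bases after a start for 5 of the 10 members: Cp, Tfrc, Alas1, Hpx and Fth1. Neither of the 2 Cp windows held a HIF core, the letters TTCNNNGAA bound by STAT factors, or the NRF1 letters on either strand. In the first Alas1 window GCGTG began at position 3, the STAT letters at -171 and the NRF1 letters at 30, counted from the start. In the first Tfrc window ACGTG began at -2, and GCGTG on the minus strand at -117 and -64. The single Hpx window held none of these letters, and Fth1 held GCGTG only in its second window, at -50 on the minus strand. Of 32851 such windows over all genes, 19.6% held ACGTG, 32.4% GCGTG, 43.8% at least 1 of these, 8.30% the STAT letters and 0.971% the NRF1 letters. A match is a stretch of letters and not a measured site, and a missing match says only that the letters are not in this window.

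The tissue label was borne out by tubule genes: over the 16 arrays the log2 level lay between 12.61 and 12.98 for Slc34a1, between 12.14 and 12.35 for Lrp2, and between 11.85 and 12.29 for Umod. The collecting duct water channel Aqp2 and the podocyte gene Nphs1 were also measured, at 7.84 to 8.54 and 6.24 to 6.70. The probe set of Vhl read 6.08 to 6.51 in double mutants, 6.25 to 6.30 in Vhl mutants, 6.20 to 6.30 in Pbrm1 mutants and 6.23 to 6.55 in wild type. That of Pbrm1 read 8.02 to 8.19 in double mutants, 8.05 to 8.33 in Vhl mutants, 8.15 to 8.24 in Pbrm1 mutants and 8.14 to 8.26 in wild type. These ranges overlap. Neither probe set separates the genotypes; whether they lie in the deleted exons is not given in the sources used here, so they do not check the labels.

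Levels are RMA log2 values, and a difference of 1 on this scale is a 2-fold change. No member fell below 3.72, the highest lower quartile of any array, on any array. Differences were tested with limma over all 22180 genes, and calls were made at 0.05 on p-values adjusted by the method of Benjamini and Hochberg. The 6 comparisons between pairs of groups share arrays, so their values are set side by side and are not independent of each other.

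Against wild type, double mutants had 1 member higher and 2 lower of 9 tested, where 12.2% of all genes were called in either direction. Vhl mutants had 1 higher and 1 lower, against 3.84% of all genes, and Pbrm1 mutants 0 higher and 2 lower, against 4.04%. Cp was the member that was higher in double and Vhl mutants. Alas1 was the member lower in all mutant groups, and Slc40a1 was lower in double and Pbrm1 mutants. The other 6 tested members, Tfrc, Slc11a2, Fth1, Heph, Hp and Hpx, were called in none of the comparisons. At an unadjusted p under 0.05, limma gave 4 of the 9 members in double mutants, 2 in Vhl mutants and 4 in Pbrm1 mutants against wild type. The share of all genes at this unadjusted threshold was not computed, here or for the lists below. These counts are therefore not a result about the members. The median log2 difference of the 9 members was 0.02 in double mutants, 0.01 in Vhl mutants and -0.05 in Pbrm1 mutants, beside -0.02, -0.01 and -0.01 over all genes.

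**Figure D1:**
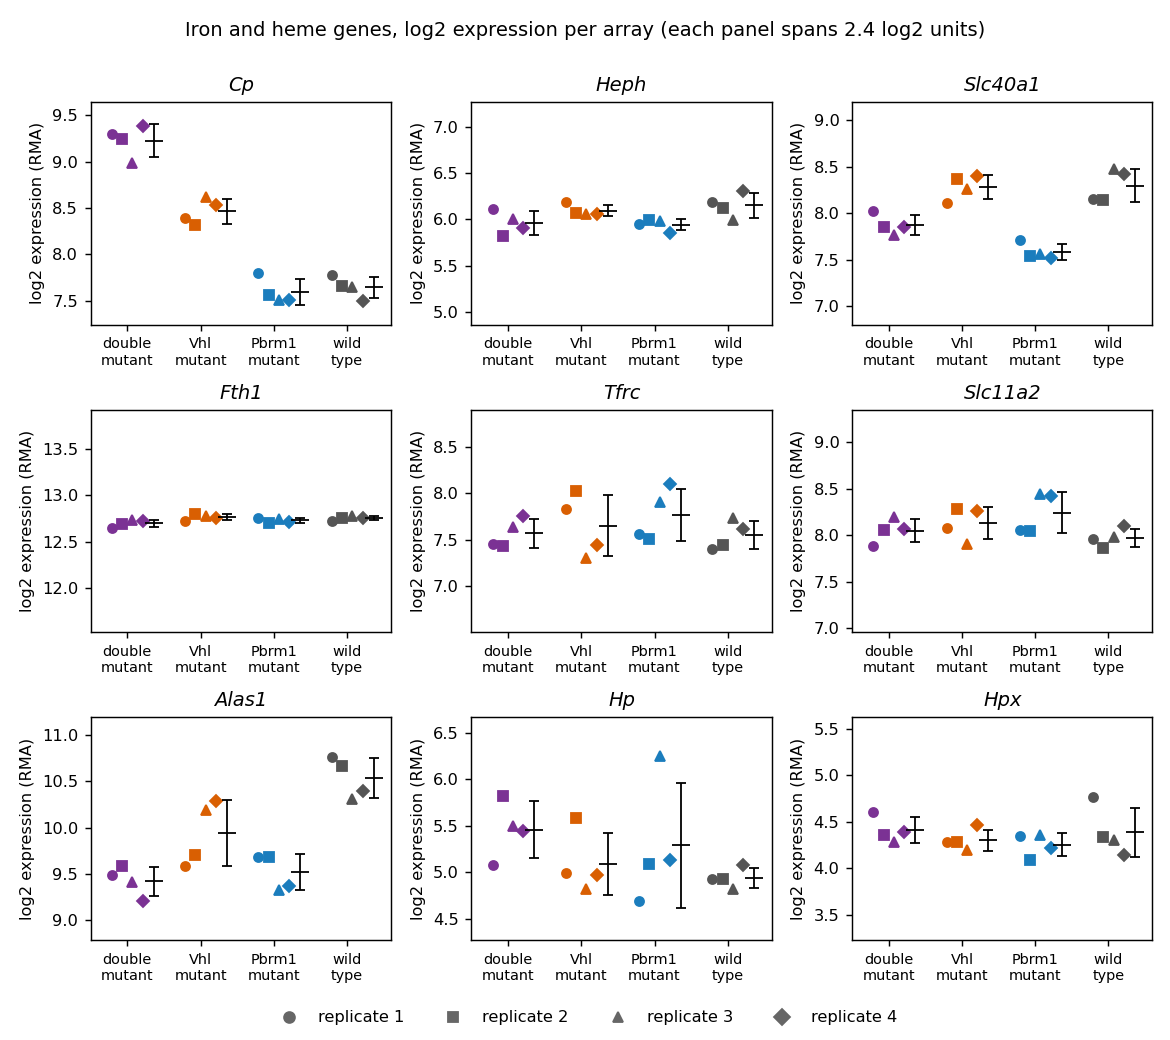
RMA log2 level (y axis) of each of the 9 tested members on every array, by genotype (x axis), with the group mean and SD as a black bar (n = 4 each). Cp lies highest in double mutants and next in Vhl mutants, Alas1 lies lowest in double and Pbrm1 mutants, and Slc40a1 lies lowest in Pbrm1 mutants.

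Ceruloplasmin, the ferroxidase made as a secreted and a membrane-anchored protein, showed the widest spread of group means of any member. Cp (chromosome 3) read 9.30, 9.24, 8.98 and 9.38 on the 4 double mutant arrays and 8.39, 8.32, 8.62 and 8.53 on the Vhl mutant arrays. It read 7.81, 7.57, 7.51 and 7.51 on the Pbrm1 mutant arrays and 7.78, 7.66, 7.65 and 7.50 on the wild-type arrays. Every double mutant array lay above every Vhl mutant array, and every Vhl mutant array above every Pbrm1 mutant and wild-type array, while these last groups overlapped. The group means were 9.23 ± 0.17 in double mutants, 8.47 ± 0.13 in Vhl mutants, 7.60 ± 0.14 in the Pbrm1 mutants and 7.65 ± 0.11 in wild type (SD, n = 4 each).

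Cp was 3.00-fold higher in double mutants than in wild type (log2 difference 1.59 ± 0.10, SE; limma adjusted p = 7.3e-10) and 1.77-fold higher in Vhl mutants than in wild type (0.82 ± 0.10; limma adjusted p = 3.2e-05). Pbrm1 loss alone gave a difference of -0.05 ± 0.10 (limma adjusted p = 0.87), with a 95% interval from -0.25 to 0.15. Among groups that share a strain label, Cp was 1.70-fold higher in double than in Vhl mutants (0.77 ± 0.10; limma adjusted p = 2.6e-05), where 6.35% of all genes were called, 3.80% higher and 2.55% lower. It was 3.11-fold higher in double than in Pbrm1 mutants (1.64 ± 0.10; limma adjusted p = 4.9e-10), where 10.2% were called, 6.82% higher and 3.37% lower. It was 1.83-fold higher in Vhl than in Pbrm1 mutants (0.87 ± 0.10; limma adjusted p = 3.9e-06), where 7.47% were called, 4.71% higher and 2.75% lower.

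Each difference from wild type may also hold a strain difference. The double mutant difference of Cp was larger than the sum of the single mutant differences. This interaction was 0.82 ± 0.14 on the log2 scale (limma adjusted p = 0.0021), and Cp was the 1 member of 9 that passed this test, against 2.63% of all genes, 1.78% with a positive and 0.852% with a negative interaction. All 6 calls of Cp were kept when any single array was left out. With the arrays averaged per description number, which leaves 2 values a group, the interaction was 0.86 with a limma adjusted p of 0.042.

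Macrophages also make Cp, and macrophage markers moved with 4 of these comparisons. Of 19 macrophage markers, 12 were higher in double mutants and 15 in Vhl mutants than in wild type, and 1 was higher in Pbrm1 mutants. Against Pbrm1 mutants, 14 were higher in double and 17 in Vhl mutants. None was lower in these 5 comparisons, and none lay below the lower quartile. Their summed linear level was 1954.4 to 2327.3 in double mutants, 1766.4 to 2348.6 in Vhl mutants, 1136.0 to 1189.1 in Pbrm1 mutants and 1139.8 to 1362.8 in wild type. The double and Vhl mutant ranges of this sum overlapped, whereas those of Cp did not; between these groups 3 macrophage markers were higher and 2 lower in double mutants. Their part in the Cp differences was not tested. Of 12 liver markers, which mark a main source of plasma ceruloplasmin, 2 were higher and 1 lower in double mutants than in wild type, and by limma 0 were called in Vhl mutants, also 0 at an unadjusted p under 0.05. Their summed level was 1162.6 to 3479.1 in double mutants, 1265.8 to 1509.7 in Vhl mutants, 1517.7 to 1871.6 in Pbrm1 mutants and 1127.5 to 1901.4 in wild type, and Cyp3a11, Mup3 and Tat lay below the lower quartile.

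The genes whose levels followed Cp most closely over the 16 arrays were Calcrl, H2-Aa and Nfkbiz, with Pearson correlations of 0.99, 0.99 and 0.98. Calcrl encodes a receptor for calcitonin-family peptides, H2-Aa a chain of an MHC class II molecule, and Nfkbiz a nuclear regulator of NF-kappaB target genes. These correlations describe 16 arrays that share their 4 genotype groups.

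Alas1 (chromosome 9) was lower in every mutant group than in wild type, and most evenly so where Pbrm1 was deleted. It read 9.49, 9.58, 9.41 and 9.21 on the double mutant arrays and 9.58, 9.70, 10.19 and 10.29 on the Vhl mutant arrays. It read 9.69, 9.69, 9.33 and 9.37 on the Pbrm1 mutant arrays and 10.76, 10.66, 10.31 and 10.40 on the wild-type arrays. All mutant arrays lay below all wild-type arrays, and the Vhl mutant arrays fell into 2 low and 2 high values that follow their description numbers. The group means were 9.42 ± 0.16 in double mutants, 9.94 ± 0.35 in Vhl mutants, 9.52 ± 0.19 in the Pbrm1 mutants and 10.53 ± 0.21 in wild type (SD, n = 4 each).

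Alas1 was 2.17-fold lower in double mutants than in wild type (log2 difference -1.12 ± 0.14, SE; limma adjusted p = 1.1e-05) and 2.02-fold lower in Pbrm1 mutants than in wild type (-1.01 ± 0.14; limma adjusted p = 0.00014). Both calls were kept in every alternative that was run. With arrays averaged per description number, the limma adjusted p was 0.003 in double and 0.027 in Pbrm1 mutants. In Vhl mutants Alas1 was 1.51-fold lower than in wild type (-0.59 ± 0.14; limma adjusted p = 0.019). That call was lost without wild-type replicate 1 or 2 or Vhl mutant replicate 1 or 2, with limma adjusted p between 0.057 and 0.070, and was also lost with arrays averaged per description number (0.20).

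Between double and Pbrm1 mutants Alas1 differed by -0.10 ± 0.14 (limma adjusted p = 0.74), with a 95% interval from -0.40 to 0.19. Double mutants were 1.44-fold lower than Vhl mutants (-0.53 ± 0.14; limma adjusted p = 0.027). This call was lost without double mutant replicate 3 or 4 or Vhl mutant replicate 3 or 4 (limma adjusted p between 0.051 and 0.11) and with arrays averaged per description number (0.14). Vhl mutants stood 0.42 ± 0.14 above Pbrm1 mutants (limma adjusted p = 0.074), and without Vhl mutant replicate 1 that difference was 0.54 with a limma adjusted p of 0.020. The interaction was 0.49 ± 0.20 and was not called (limma adjusted p = 0.22).

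Alas1 is expressed in proximal tubule, the main epithelium of the cortex, whose markers were read beside it. The summed linear level of 15 proximal tubule markers was 52910.0 to 55777.6 in double mutants, 54665.4 to 58985.9 in Vhl mutants, 59778.3 to 62182.9 in Pbrm1 mutants and 57812.1 to 59463.8 in wild type. Against wild type, 1 marker was higher and 6 lower in double mutants, 0 and 1 in Vhl mutants, and 3 and 0 in Pbrm1 mutants. The marker sum lay below wild type on every double mutant array and above it on every Pbrm1 mutant array. The part of tubule content in the Alas1 values was not tested in any group.

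The genes closest to Alas1 over the 16 arrays were Bdh2, Cpne4 and Slc5a6, with Pearson correlations of 0.93, 0.91 and 0.91. Bdh2 encodes a short-chain dehydrogenase that has been described as an enzyme of a mammalian siderophore, Cpne4 a copine, which is a calcium-dependent membrane-binding protein, and Slc5a6 the sodium-dependent multivitamin transporter.

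Slc40a1 (chromosome 1), which encodes ferroportin, the only known exporter of iron from mammalian cells, was lower where Pbrm1 was deleted. It read 8.03, 7.85, 7.77 and 7.85 on the double mutant arrays and 8.11, 8.37, 8.26 and 8.40 on the Vhl mutant arrays. It read 7.71, 7.54, 7.56 and 7.52 on the Pbrm1 mutant arrays and 8.15, 8.14, 8.48 and 8.42 on the wild-type arrays. The Pbrm1 mutant arrays lay lowest, the double mutant arrays next, and the Vhl mutant and wild-type arrays above both and overlapping each other. The group means were 7.87 ± 0.11 in double mutants, 8.28 ± 0.13 in Vhl mutants, 7.58 ± 0.09 in the Pbrm1 mutants and 8.30 ± 0.18 in wild type (SD, n = 4 each).

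Slc40a1 was 1.64-fold lower in Pbrm1 mutants than in wild type (log2 difference -0.71 ± 0.09, SE; limma adjusted p = 5.2e-05) and 1.34-fold lower in double mutants than in wild type (-0.42 ± 0.09; limma adjusted p = 0.0031). Vhl mutants differed from wild type by -0.01 ± 0.09 (limma adjusted p = 0.97), with a 95% interval from -0.20 to 0.18. Slc40a1 was 1.63-fold higher in Vhl than in Pbrm1 mutants (0.70 ± 0.09; limma adjusted p = 2.4e-05) and 1.33-fold lower in double than in Vhl mutants (-0.41 ± 0.09; limma adjusted p = 0.0074). The last of these was kept when any single array was left out but not with arrays averaged per description number (limma adjusted p = 0.056) or without the 3 arrays of raised adipose markers described below (-0.34; limma adjusted p = 0.10).

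Double mutants lay 1.22-fold above Pbrm1 mutants in Slc40a1 (0.29 ± 0.09; limma adjusted p = 0.045). That call was lost in 8 of the 16 exclusions of a single array, with limma adjusted p from 0.051 to 0.13: without double mutant replicate 1, 2 or 4, Pbrm1 mutant replicate 2, 3 or 4, or Vhl mutant replicate 2 or 3. It was also lost with arrays centred on their median (0.096) and with quantile normalization (0.086). The interaction of 0.30 ± 0.13 was not called (limma adjusted p = 0.24).

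Macrophages that recycle iron hold much ferroportin. The summed macrophage level given above was higher in double and Vhl mutants than in wild type on every array, and in Pbrm1 mutants its range overlapped that of wild type. The part of macrophages in the Slc40a1 values was not tested. Of 12 endothelial markers, 5 were called higher and 0 lower in double mutants than in wild type, 6 and 0 in Vhl mutants, and 0 and 2 in Pbrm1 mutants. Their summed level was 4685.1 to 5159.6 in double mutants, 5143.6 to 5709.4 in Vhl mutants, 3351.9 to 3772.7 in Pbrm1 mutants and 3821.4 to 4296.4 in wild type, and their part in the Slc40a1 values was not tested. Etnppl, Cpn1 and Dubr followed Slc40a1 most closely over the 16 arrays, with Pearson correlations of 0.95, 0.94 and 0.94. Etnppl encodes a lyase of phosphoethanolamine, Cpn1 the catalytic subunit of a plasma carboxypeptidase, and Dubr a long noncoding RNA.

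**Figure D2:**
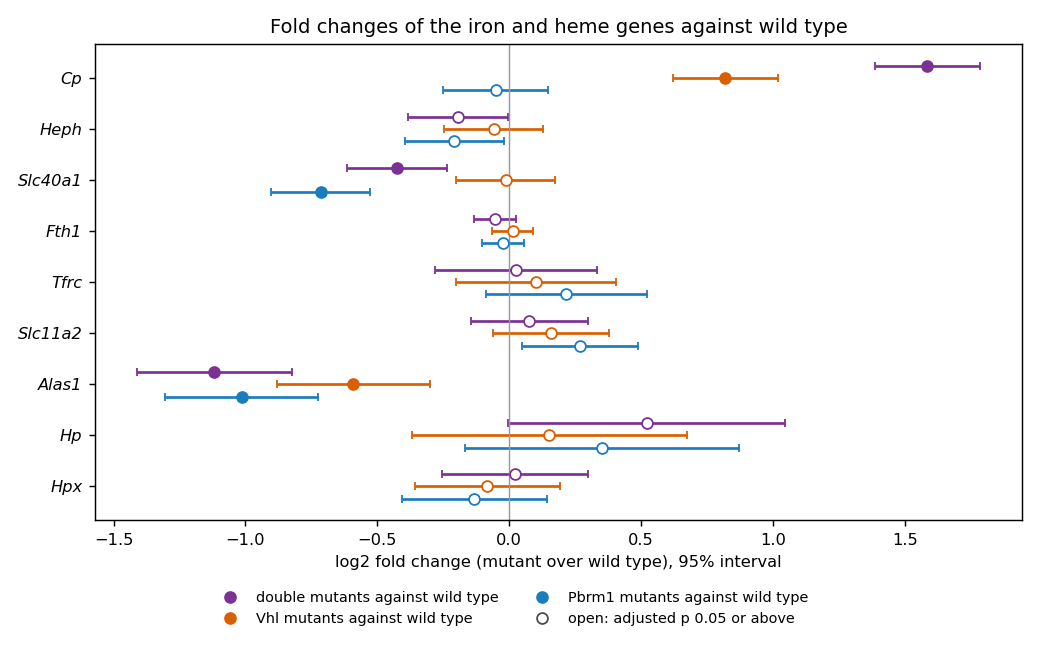
Log2 difference of each tested member (x axis, with the 95% interval from limma as a line) in double, Vhl and Pbrm1 mutants against wild type, members down the page; filled points were called. Cp lies to the right of 0 for double and Vhl mutants, and Alas1 and Slc40a1 lie to the left of 0 for double and Pbrm1 mutants against wild type.

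The uptake members were not called in any comparison. Tfrc (chromosome 16) read 7.45, 7.43, 7.63 and 7.76 in double mutants and 7.83, 8.02, 7.31 and 7.45 in Vhl mutants. It read 7.56, 7.51, 7.91 and 8.09 in Pbrm1 mutants and 7.40, 7.45, 7.74 and 7.62 in wild type. The 4 groups overlapped, and within the Vhl and Pbrm1 mutant groups the arrays split by description number. Against wild type the difference was 0.03 in double mutants (95% interval -0.28 to 0.33), 0.10 in Vhl mutants (-0.20 to 0.41) and 0.22 in Pbrm1 mutants (-0.09 to 0.52), with limma adjusted p of 0.95, 0.80 and 0.52. These intervals leave room for changes of up to about 0.5 on the log2 scale.

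Slc11a2 (chromosome 15) read 7.89, 8.06, 8.19 and 8.06 in double mutants and 8.07, 8.28, 7.91 and 8.26 in Vhl mutants. It read 8.06, 8.04, 8.44 and 8.43 in Pbrm1 mutants and 7.96, 7.86, 7.98 and 8.10 in wild type. All groups overlapped wild type, and its largest difference was 0.27 ± 0.11 in Pbrm1 mutants (95% interval 0.05 to 0.49; limma adjusted p = 0.19).

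Fth1 (chromosome 19), the ferritin heavy chain, was among the most abundant transcripts, with 99.9% of genes below its mean, and was the steadiest member. It averaged 12.70 ± 0.04 in double mutants, 12.77 ± 0.03 in Vhl mutants, 12.73 ± 0.03 in the Pbrm1 mutants and 12.75 ± 0.02 in wild type (SD, n = 4 each). The 95% interval of the difference from wild type was -0.13 to 0.03 in double mutants, -0.06 to 0.09 in Vhl mutants and -0.10 to 0.06 in Pbrm1 mutants. The double mutant difference was -0.05 (limma adjusted p = 0.46). With quantile normalization it was -0.11 and was called (limma adjusted p = 0.024).

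Heph (chromosome X), the membrane ferroxidase best known from the intestine, averaged 5.96 ± 0.13 in double mutants, 6.09 ± 0.06 in Vhl mutants, 5.95 ± 0.06 in the Pbrm1 mutants and 6.15 ± 0.13 in wild type (SD, n = 4 each). Its difference from wild type was -0.19 in double mutants (95% interval -0.38 to -0.0033), -0.06 in Vhl mutants (-0.25 to 0.13) and -0.21 in Pbrm1 mutants (-0.40 to -0.02). None was called, with limma adjusted p of 0.20, 0.81 and 0.25. The other ferroxidase member, Cp, was thus called in comparisons in which Heph was not. The difference between the genes was not tested.

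Of the scavengers, haptoglobin varied most from array to array. Hp (chromosome 8) read 5.08, 5.82, 5.50 and 5.44 in double mutants and 4.996, 5.580, 4.814 and 4.965 in Vhl mutants. It read 4.69, 5.08, 6.25 and 5.13 in Pbrm1 mutants and 4.92, 4.93, 4.81 and 5.08 in wild type. The double mutant arrays did not overlap wild type, with 5.080 as the lowest double mutant value and 5.078 as the highest wild-type value. The difference was 0.52 ± 0.25 in double mutants (95% interval -0.0032 to 1.05; limma adjusted p = 0.22), 0.15 ± 0.25 in Vhl mutants (limma adjusted p = 0.83) and 0.35 ± 0.25 in Pbrm1 mutants (limma adjusted p = 0.55). When only the 2 groups compared entered the fit, the double mutant difference passed (limma adjusted p = 0.027).

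Adipose tissue makes haptoglobin, and adipose markers were read on each array beside Hp. The median log2 difference of 11 adipose markers from the wild-type mean was -0.04, 0.29, 0.52 and -0.09 on the double mutant arrays and 0.06, 0.57, 0.21 and 0.12 on the Vhl mutant arrays. It was -0.03, 0.05, 0.71 and -0.05 on the Pbrm1 mutant arrays and 0.03, 0.20, 0.01 and -0.20 on the wild-type arrays. By limma, 0 of the 11 adipose markers were called against wild type in any mutant group, and at an unadjusted p under 0.05 there was 1 in double mutants, 0 in Vhl mutants and 1 in Pbrm1 mutants; Lep lay below the lower quartile. Pbrm1 mutant replicate 3 had both the highest Hp value and the highest adipose median, and Vhl mutant replicate 2 was the highest of its group in both. Among double mutants, replicate 2 had the highest Hp value and replicate 3 the highest adipose median, and replicate 4 read 5.44 for Hp at a median of -0.09. The summed linear adipose level was 4314.6, 4719.0, 6498.3 and 5535.6 on the double mutant arrays, 3811.5, 4497.4, 5937.1 and 6113.6 on the Vhl mutant arrays, 4806.1, 4730.0, 6532.3 and 4927.4 on the Pbrm1 mutant arrays, and 5079.5, 5033.1, 3709.7 and 3687.6 on the wild-type arrays. By this sum Pbrm1 mutant replicate 3 was again the highest array, whereas Vhl mutant replicate 2 lay below replicates 3 and 4, whose Hp values were 4.81 and 4.97. A linear sum is weighted to the most abundant markers, whereas the marker Adipoq read only 3.46 to 4.66 on the log2 scale. The summed markers included Car3 and Pck1 beside Adipoq. Which markers set the sum was not examined, and whether the sum follows fat content was not tested. The part of adipose tissue in the Hp values was not tested. Without the 3 arrays whose adipose median exceeded 0.5, an exclusion chosen after seeing the data, the Hp difference was 0.51 in double mutants, -0.01 in Vhl mutants and 0.04 in Pbrm1 mutants, with limma adjusted p of 0.084, 0.99 and 0.96. The same exclusion kept the calls of Cp and, in double and Pbrm1 mutants against wild type, those of Alas1 and Slc40a1.

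**Figure D3:**
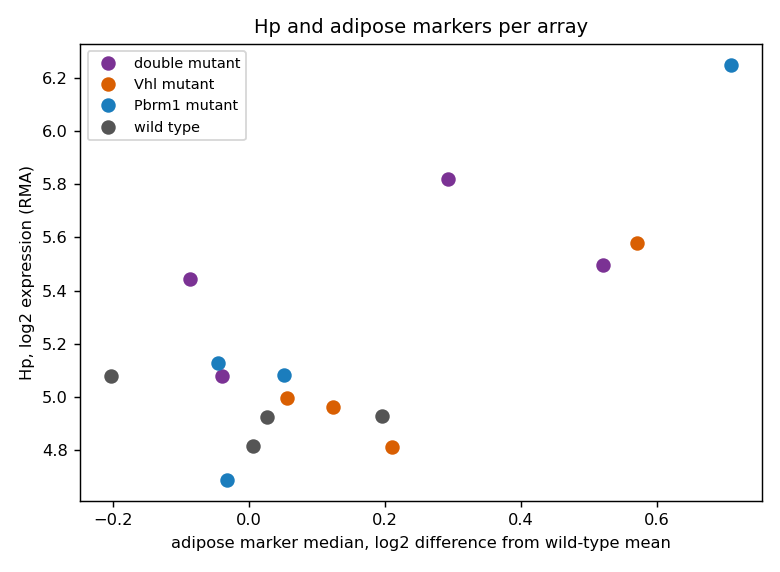
Log2 level of Hp (y axis) against the median log2 difference of adipose markers from the wild-type mean (x axis), 1 point per array, coloured by genotype. Pbrm1 mutant replicate 3 and Vhl mutant replicate 2 stand to the right and above the other arrays of their groups.

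Hpx (chromosome 7) lay near the background of the arrays, at 4.28 to 4.61 in double mutants, 4.19 to 4.46 in Vhl mutants, 4.09 to 4.36 in Pbrm1 mutants and 4.14 to 4.76 in wild type. These ranges overlap. Its difference from wild type was 0.02 in double mutants, -0.08 in Vhl mutants and -0.13 in Pbrm1 mutants, with limma adjusted p of 0.95, 0.82 and 0.71.

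The order of the levels of each called member can be set out from these values. For Cp it ran from double mutants through Vhl mutants to Pbrm1 mutants and wild type, the last neighbours not differing beyond their spread. For Alas1 the lowest groups were double and Pbrm1 mutants, which did not differ beyond their spread, then Vhl mutants, then wild type, with the Vhl mutant place open to single arrays as given above. For Slc40a1 it ran from Pbrm1 mutants through double mutants to Vhl mutants and wild type, the last neighbours not differing beyond their spread. The place of Pbrm1 mutants below double mutants is open to single arrays and to the scaling, as given above.

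The wider pathway was read from 73 further genes on 7 lists covering uptake, storage and export, heme synthesis, heme scavenging and breakdown, iron sensing, mitochondrial iron, and siderophore genes, of which 67 were tested. Against wild type, 6 were higher and 12 lower in double mutants, 2 and 2 in Vhl mutants, and 2 and 6 in Pbrm1 mutants. Over all genes 6.64% were called higher and 5.56% lower in double mutants, 2.04% and 1.79% in Vhl mutants, and 1.59% and 2.45% in Pbrm1 mutants. The median log2 difference of these genes was -0.03 in double mutants, -0.04 in Vhl mutants and -0.03 in Pbrm1 mutants, beside the medians of all genes given above. Ftl1, Alas2 and Nfs1 had shared probe sets only, and the rest were not analysed here.

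**Figure D4:**
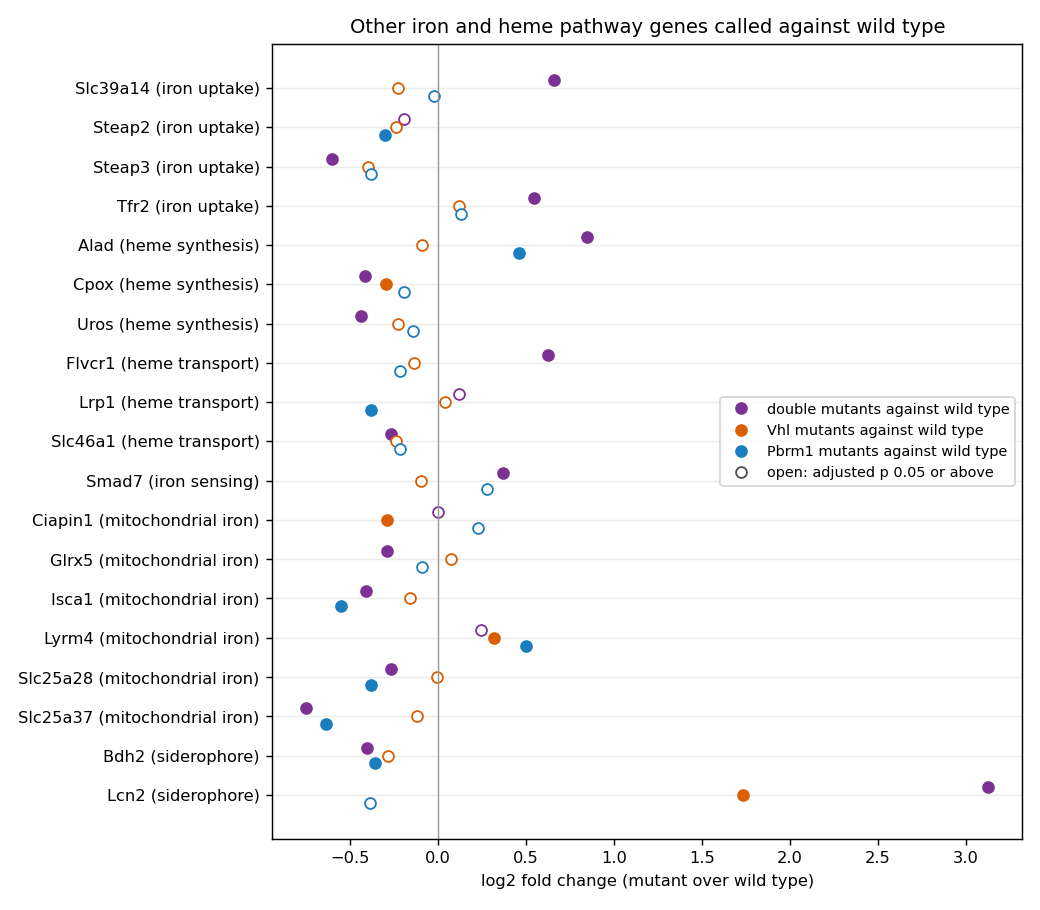
Log2 difference from wild type (x axis) of named pathway genes, at most 4 called genes per list and comparison, for double, Vhl and Pbrm1 mutants; filled points were called. Lcn2 stands far to the right in double and Vhl mutants, and Slc25a37 and Isca1 to the left in double and Pbrm1 mutants.

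In heme synthesis, 7 of the 9 listed genes were tested, Alas1 among them. In double mutants 1 was higher and 4 lower than in wild type, in Vhl mutants 0 and 2, and in Pbrm1 mutants 1 and 1. Alad, which joins the product of the Alas1 step into a pyrrole ring, moved opposite to Alas1 in double and Pbrm1 mutants. Its level was 9.23 ± 0.12 in double mutants, 8.29 ± 0.08 in Vhl mutants, 8.85 ± 0.12 in the Pbrm1 mutants and 8.39 ± 0.09 in wild type (SD, n = 4 each). Alad was 0.84 ± 0.08 higher in double mutants (limma adjusted p = 2.0e-07) and 0.46 ± 0.08 higher in Pbrm1 mutants (limma adjusted p = 0.0011) than in wild type on the log2 scale. It was also 0.94 ± 0.08 higher in double than in Vhl mutants, which share a strain label (limma adjusted p = 1.1e-07).

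Of the genes of later steps of heme synthesis, Cpox and Uros were among those lower in double mutants than in wild type. Ppox, also of a later step, differed by 0.20 ± 0.07 and was not called (limma adjusted p = 0.0505). Cpox, the coproporphyrinogen oxidase, was lower by a log2 difference of -0.41 ± 0.07 in double mutants (limma adjusted p = 0.00022) and -0.30 ± 0.07 in Vhl mutants (limma adjusted p = 0.013), the second of which was lost with arrays averaged per description number (limma adjusted p = 0.12). Uros, which closes the porphyrin ring, was lower by -0.44 ± 0.11 in double mutants (limma adjusted p = 0.0087).

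Several mitochondrial iron genes were lower in both groups that lack Pbrm1. Of 14 tested, 0 were higher and 5 lower in double mutants, 1 and 3 in Pbrm1 mutants, and 1 and 1 in Vhl mutants. Slc25a37, mitoferrin-1, which brings iron into mitochondria, averaged 7.21 ± 0.05 in double mutants, 7.84 ± 0.09 in Vhl mutants, 7.32 ± 0.05 in the Pbrm1 mutants and 7.96 ± 0.14 in wild type (SD, n = 4 each). It was lower than in wild type by -0.75 ± 0.07 in double mutants (limma adjusted p = 6.5e-07) and -0.64 ± 0.07 in Pbrm1 mutants (limma adjusted p = 1.7e-05). Against Vhl mutants it was lower by -0.63 ± 0.07 in double mutants (limma adjusted p = 1.4e-05).

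Isca1, an assembly factor for iron-sulfur clusters, differed from wild type by -0.41 ± 0.07 in double mutants (limma adjusted p = 0.00038) and -0.55 ± 0.07 in Pbrm1 mutants (limma adjusted p = 4.6e-05). Slc25a28, mitoferrin-2, differed by -0.38 ± 0.08 in Pbrm1 mutants (limma adjusted p = 0.0055) and -0.27 ± 0.08 in double mutants (limma adjusted p = 0.026). The double mutant call of Slc25a28 was lost without wild-type replicate 2 or 4 or double mutant replicate 3 or 4, with limma adjusted p between 0.063 and 0.087. In double mutants the glutaredoxin gene Glrx5 differed by -0.29 ± 0.06 (limma adjusted p = 0.0013).

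Lyrm4, a partner of the cysteine desulfurase that supplies sulfur for these clusters, ran the other way. It was 0.50 ± 0.08 higher in Pbrm1 mutants than in wild type (limma adjusted p = 0.0011). In Vhl mutants it was 0.32 ± 0.08 higher (limma adjusted p = 0.037), a call lost without wild-type or Vhl mutant replicate 1, 2 or 4, with limma adjusted p up to 0.085. In Vhl mutants Ciapin1, of the cytosolic cluster machinery, was -0.29 ± 0.07 lower (limma adjusted p = 0.030), a call lost without wild-type replicate 1 or 2 or Vhl mutant replicate 2, 3 or 4, with limma adjusted p up to 0.093.

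Among uptake genes, Slc39a14, a carrier of iron not bound to transferrin, was higher in double mutants. Its level was 8.45 ± 0.22 in double mutants, 7.57 ± 0.10 in Vhl mutants, 7.78 ± 0.12 in the Pbrm1 mutants and 7.80 ± 0.14 in wild type (SD, n = 4 each). The double mutant difference from wild type was 0.66 ± 0.10 (limma adjusted p = 0.00012), and the interaction was 0.91 ± 0.14 (limma adjusted p = 0.0011). Tfr2, a second transferrin receptor known as an iron sensor in liver, was 0.54 ± 0.13 higher in double mutants than in wild type (limma adjusted p = 0.0077). Its means, 4.57 in double mutants and 4.04 in wild type, lay near the background of the arrays. The reductase gene Steap3 was lower in double mutants by -0.60 ± 0.12 (limma adjusted p = 0.0014). In Pbrm1 mutants the reductase gene Steap2 was lower by -0.30 ± 0.07 (limma adjusted p = 0.024), a call lost without wild-type replicate 1 or Pbrm1 mutant replicate 1 or 4, with limma adjusted p up to 0.076.

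Of 14 heme scavenging, transport and breakdown genes, 1 was higher and 1 lower in double mutants, 0 and 0 in Vhl mutants, and 0 and 1 in Pbrm1 mutants. Flvcr1, known first as an exporter of heme, averaged 7.83 ± 0.14 in double mutants, 7.07 ± 0.13 in Vhl mutants, 6.99 ± 0.20 in the Pbrm1 mutants and 7.21 ± 0.11 in wild type (SD, n = 4 each). It was 0.62 ± 0.10 higher in double mutants than in wild type (limma adjusted p = 0.00025), with an interaction of 0.98 ± 0.14 (limma adjusted p = 0.00061). Slc46a1, a carrier of folate and heme, was lower by -0.27 ± 0.07 in double mutants (limma adjusted p = 0.015), which was lost without double mutant replicate 4 (limma adjusted p = 0.068). Lrp1, the hemopexin receptor, was lower by -0.38 ± 0.10 in Pbrm1 mutants (limma adjusted p = 0.029), which was lost without wild-type replicate 2 or 3 or Pbrm1 mutant replicate 1, 2 or 4, with limma adjusted p up to 0.094.

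Lcn2, lipocalin-2, which binds iron-loaded siderophores and is a known tubule injury marker, had the largest difference of any pathway gene. Its level was 8.71 ± 0.31 in double mutants, 7.34 ± 0.35 in Vhl mutants, 5.22 ± 0.19 in the Pbrm1 mutants and 5.61 ± 0.22 in wild type (SD, n = 4 each). The double mutant arrays lay above the Vhl mutant arrays, which lay above those of the other groups. Lcn2 was 8.73-fold higher in double mutants (log2 difference 3.13 ± 0.17; limma adjusted p = 3.3e-10) and 3.32-fold higher in Vhl mutants (1.73 ± 0.17; limma adjusted p = 6.5e-06) than in wild type. Its interaction was 1.78 ± 0.24 (limma adjusted p = 0.00028). Neutrophils also hold Lcn2, and of 10 neutrophil markers 0 were called against wild type in any mutant group by limma, 0 also at an unadjusted p under 0.05, and Camp, Ltf and S100a8 lay below the lower quartile.

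Bdh2, named above beside Alas1, was lower by -0.40 ± 0.09 in double mutants (limma adjusted p = 0.0030) and -0.36 ± 0.08 in Pbrm1 mutants (limma adjusted p = 0.019). The Pbrm1 mutant call was lost without wild-type replicate 1 or Pbrm1 mutant replicate 3, with limma adjusted p of 0.061 to 0.068. Of 15 iron sensing and hepcidin genes, 1 was higher and 1 lower in double mutants and 0 were called in Vhl or Pbrm1 mutants by limma, with 2 at an unadjusted p under 0.05 in each. The higher gene was Smad7, an inhibitor of BMP signalling, at 0.37 ± 0.12 (limma adjusted p = 0.039), a call lost in 7 exclusions with limma adjusted p up to 0.11: wild-type replicates 2 and 4, the 4 double mutant arrays and Vhl mutant replicate 2. The lower gene was Hamp2, whose level lay below the lower quartile in both groups, so no fold is given. Averaging arrays per description number also ended the calls against wild type of Lyrm4 and Ciapin1 in Vhl mutants, Steap2, Lrp1 and Bdh2 in Pbrm1 mutants, and Slc25a28, Slc46a1 and Smad7 in double mutants.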

How the data were processed

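RNA of 16 kidney cortex samples was extracted with Trizol, per the labels' protocols, and hybridised to Affymetrix arrays. Per the submitters' processing notes, the deposited values are log2 levels made by the authors with RMA in Affymetrix Expression Console 1.4; the genome build and probe annotation they used are not given in the sources used here. Of 41345 probe sets, the platform annotation paired 23521 with 1 symbol, which gave 22180 genes after keeping the probe set of highest mean for 1082 genes with several; 1814 named several genes and 16010 were not listed.

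The log2 values were fitted as deposited with limma 3.58.1 in R 4.3.3: 4 groups, description number as a random block (duplicateCorrelation, 0.084), eBayes with a trend, Benjamini-Hochberg over all genes. The SE and p-values rest on the spread between arrays, and the median SE of a difference from wild type was 0.12. If a description number marks an animal, they may understate the spread between animals. The scripts were tested on simulated data. The members and lists were chosen with earlier results of these data known. Pathway genes named are those called, at most 4 per list and comparison by size; likeness is Pearson correlation for the 3 members of widest range. Summed marker levels add 2 to the power of the log2 level. Alternatives changed the block, the probe sets, the scaling, the trend and the arrays used. Replicate numbers in the titles were checked for pairing: deviations from group means of same-numbered arrays correlated between -0.07 and 0.06 over 24 pairs, so the numbers do not pair the arrays.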

Additional observations from a re-analysis of the deposited data

Results flagged for a closer look

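In all, 6 readings of a gene on 1 array stood apart from the other 3 of their group by Dixon's test. They came from 140 groups of 4 examined over 35 named genes, of which chance flags about 1 in 20. Some of these readings fall on the same array. In Vhl mutant replicate 1, Ciapin1 read 7.41 against 7.22 to 7.25 on the other Vhl mutant arrays, Cpox 8.53 against 8.73 to 8.76, and Heph 6.18 against 6.06 to 6.07. Wild-type replicate 3 read 6.25 for Hfe against 6.47 to 6.50. Smad7 read 7.27 in double mutant replicate 2 against 7.08 to 7.11, and 6.83 in Pbrm1 mutant replicate 4 against 7.09 to 7.13.

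For 6 named genes the double mutant difference departed from the sum of the single mutant differences, by limma's interaction term over all genes. Wild type enters that term, so genotype and strain cannot be told apart in it. The interaction was 0.82 for Cp, 0.48 for Alad, 0.98 for Flvcr1, 1.78 for Lcn2, -0.57 for Lyrm4 and 0.91 for Slc39a14 on the log2 scale, and the limma adjusted p values were 0.0021, 0.021, 0.00061, 0.00028, 0.012 and 0.0011. With arrays averaged per description number those of Alad and Lyrm4 no longer passed.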

How the results depend on the processing

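Of 15 calls of members, 11 were kept in every alternative run and 0 changed direction: the 6 calls of Cp, those of Slc40a1 in Pbrm1 and double mutants against wild type and in Vhl against Pbrm1 mutants, and those of Alas1 in double and Pbrm1 mutants against wild type. Members called in Vhl mutants against wild type numbered 2, and 1 with arrays averaged per description number, without the trend, or without the 3 arrays of raised adipose markers. In double against Vhl mutants there were 3, and 1 with arrays averaged per number or without those 3 arrays. In double against Pbrm1 mutants there were 2, and 1 with arrays averaged per number, double mutant replicates 2 and 3 averaged, arrays centred on their median, quantile normalization, no trend, or without the 3 arrays. Leaving out 1 array gave 1 to 2 in Vhl mutants against wild type, 2 to 3 in double against Vhl mutants and 1 to 2 in double against Pbrm1 mutants. In the other comparisons the count stayed within 1 of the main one. The cause of these changes was not tested, except that averaging per number leaves fewer values to fit.

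Averaging per number gave 1729 called genes in double, 246 in Vhl and 274 in Pbrm1 mutants against wild type, where the main counts were 2706, 851 and 895. It gave 710 in double against Vhl mutants, 1398 in double against Pbrm1 mutants, 916 in Vhl against Pbrm1 mutants and 99 for the interaction, where the main counts were 1408, 2260, 1656 and 583. In Vhl mutants against wild type it was 545 without wild-type replicate 1 and 564 without Vhl mutant replicate 3. Without the 3 arrays of raised adipose markers it was 564 in Vhl and 501 in Pbrm1 mutants against wild type, 830 in double against Vhl mutants and 303 for the interaction, which was 884 without a block and 337 without the trend. Called pathway genes in Vhl mutants against wild type numbered 4, with 1 after averaging per number, 7 with arrays centred, and 2 with probe sets of a gene averaged, without the trend, or without wild-type replicate 1 or 2 or Vhl mutant replicate 2; in Pbrm1 mutants they numbered 8, with 5 after averaging per number or without the trend. Titles give each group replicates 1 to 4, which share only a number: with the replicate number as a block in place of the description number, Cp in double mutants against wild type was 1.58 and its interaction 0.81, and no member's call changed. The filter on dim genes left Hpx untested. Placing double mutant replicate 3 under the description number of replicate 4 changed no member's call.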

Other observations

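Arrays of 1 description number lay together for some members. For Alas1 the difference between the 2 number means of a group was 0.60 in Vhl mutants, 0.33 in the Pbrm1 mutants and 0.36 in wild type, larger each time than both differences within a number. For Tfrc it was 0.55 in Vhl mutants, 0.47 in the Pbrm1 mutants and 0.25 in wild type, again larger than both. Over all genes, 28.2%, 27.2% and 29.1% showed this in those groups, and 3.07% in all 3 of them. Alas1 and Tfrc were the 2 members of 9 that did.

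Red cell and distal nephron markers were read beside the heme genes. Against wild type, 2 of 4 tested red cell markers were lower in double mutants, 1 in Vhl mutants and 0 in Pbrm1 mutants (1 at an unadjusted limma p under 0.05). Of 8 intercalated cell markers, 7 were lower in double mutants, 5 in Vhl mutants and 2 in Pbrm1 mutants. Of 6 distal convoluted tubule markers, 4 were lower in double mutants, 1 in Vhl mutants and 2 in Pbrm1 mutants, and none was higher. Of 6 principal cell markers, 4 were lower in double mutants, 1 in Vhl mutants and 0 in Pbrm1 mutants by limma, also 0 at an unadjusted p under 0.05. Of 9 thick ascending limb markers, 3 were higher and 4 lower in double mutants and 2 lower in Vhl mutants.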
